A study of Mus musculus with 8 samples.

Results

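Ribbon synapse and active zone genes encode the machinery with which retinal neurons release transmitter. The group described here holds 10 genes, found by their symbols among the 17500 genes of the deposited table of retinal RNA counts, and all 10 passed the filter on low counts. They are *Ctbp2*, *Bsn*, *Pclo*, *Erc2*, *Rims1* and *Rims2*, which encode scaffolds of the ribbon and the active zone, and *Unc13b*, *Cplx3*, *Cplx4* and *Stx3*, which encode proteins of vesicle priming and fusion.

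Whole retinas of 8 mice on a C57BL/6J background, all 6 months old, were sequenced with 1 library per mouse. The 4 mice M893, M901, M902 and M909 carry the label Rbfox2 KD and are called *Rbfox2-/-* here. By the study's methods they were *Rbfox2 fl/fl* with a tamoxifen-inducible Cre under a ubiquitous promoter, and they were analysed 4 months after tamoxifen. The deletion was thus not restricted to 1 retinal cell type. By the study's immunostaining, however, Rbfox2 itself was restricted to ganglion, amacrine and horizontal cells, and the Cre line was used for its reporter activity there. Photoreceptors and bipolar cells are not among these cells. The controls were the 4 age-matched *Rbfox2 fl/+* animals M833, M894, M896 and M898. The labels give tamoxifen for 4 months for the controls too. The study's text, however, gives the 4 months after tamoxifen only for *Rbfox2-/-* mice. Its methods name tamoxifen or corn oil vehicle without saying which the controls received. The sources used here also do not say whether the controls carried Cre. Effects of tamoxifen, of Cre and of the *Rbfox2* genotype therefore cannot be told apart. Values of single mice are listed below in the order M833, M894, M896, M898 for the controls and M893, M901, M902, M909 for *Rbfox2-/-*. Every gene-level value from these retinas pools all retinal cell types.

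Photoreceptors and bipolar cells release glutamate continuously, in amounts that follow the graded membrane potential. Their terminals hold a ribbon, a plate that tethers vesicles above the active zone, and the ribbon is built mostly of RIBEYE, a product of *Ctbp2*. Bassoon anchors the ribbon at the presynaptic membrane, RIM proteins link vesicles to calcium channels, Munc13 proteins prime vesicles, and complexins and syntaxins act in the SNARE complex that fuses them. Amacrine and ganglion cells have conventional active zones without ribbons, at which several of the same scaffolds are used together with other complexins and syntaxins. Rbfox2 is an RNA-binding protein that regulates splicing. The study gives the element it recognises as (U)GCAUG, here (T)GCATG with T for U, and the searches below took the full TGCATG. Rbfox proteins also bind 3′ untranslated regions.

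Since Rbfox2 is an RNA-binding protein, the sequences shown first are the TGCATG letters in the 3′ untranslated regions of the members. They were searched on the sense strand of the longest 3′ untranslated region among the coding transcripts of each gene (GENCODE M21 basic set, GRCm38), and each is printed 5′ to 3′ on the gene's strand with TGCATG in capitals. *Rims2* held the most, with 4 in 2608 bases, on the plus strand at chr15:39681832-39681861, chr15:39682386-39682415, chr15:39682516-39682545 and chr15:39683032-39683061.
Rims2 1: ccctggtaacacTGCATGcttgatgttgtg
Rims2 2: agaaacttttttTGCATGgacacagattag
Rims2 3: aaatttcactagTGCATGgttttacaatgg
Rims2 4: tttattgtacagTGCATGgtaatttttttc
*Pclo* held 2 in 4573 bases, on the plus strand at chr5:14859441-14859470 and chr5:14863153-14863182. Both continue as TGCATGC, as do Rims2 1 above and Rims1 1 below.
Pclo 1: taggttacaaggTGCATGctttccctatgt
Pclo 2: ctgacgatatgtTGCATGctttcttggtgg
*Rims1* held 2 in 2171 bases, on the minus strand at chr1:22286911-22286940 and chr1:22286806-22286835.
Rims1 1: gctgttcaaagcTGCATGcattttgtataa
Rims1 2: tggcttgtatgtTGCATGtacttgtacagt

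*Bsn* and *Erc2* held 2 each, so that 5 of the 10 members held 12 in all. The 3′ untranslated regions of *Ctbp2*, *Unc13b*, *Cplx3*, *Cplx4* and *Stx3* held none. Among the 15327 genes of the table with a 3′ untranslated region, 35.2% held at least 1. Longer regions held the letters more often, with 12.8% of the regions under 1000 bases, 39.0% of those from 1000 to under 2000 bases, 61.5% of those from 2000 to under 4000 bases and 84.6% of the longer ones. The 5 members with the letters had regions of 2171 to 4573 bases, and 4 of the 5 without had 593 to 1719 bases, the exception being *Cplx3* with 2245. Per length, the members held 0.515 per kb and all genes 0.363 per kb. These matches describe letters, not binding, and introns, where splicing elements lie, were not searched. The shorter GCATG was not searched either, so a region without TGCATG may still hold it.

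Depth, libraries and the targeted gene bear on all values that follow. Total counts per library ran from 160630226 to 211283591. Levels are given as CPM, counts scaled to a common library total after TMM normalization, on which 3 counts stand for at most 0.0189 CPM, and the lowest member, *Erc2*, had at least 43.6 CPM in every mouse. *Rbfox2* had 144 to 157 CPM in the controls and 53.6 to 59.4 CPM in *Rbfox2-/-* retinas, a log2 fold change of -1.41 (SE 0.0456, FDR 5.51e-07, the Benjamini-Hochberg adjusted p of edgeR's quasi-likelihood test). M901 and M902 stood apart from the other libraries on the first principal component, which held 40.5% of the variance, and M909 on the second. M901 and M902 were also the only libraries with high *Xist* (1439.7 and 1739 CPM against 1.71 to 2.22 in the others). Both are *Rbfox2-/-* mice, all controls had low *Xist*, and the labels give no sex. Values without M901 and M902 are therefore given beside results that move with them. Retinal neuron markers were present in every library, among them 8 rod markers with a summed level of 61966 to 69893 CPM.

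Between the groups, none of the 10 members passed an FDR of 0.05 in edgeR's quasi-likelihood test, with adjustment over all 16797 genes tested, a threshold that 0.0655% of all genes passed (11 genes). Only *Stx3* had an unadjusted p under 0.05, beside 13.3% of all genes. *Stx3* was also the only member whose groups did not overlap in CPM, beside 7.03% of all genes. DESeq2 called 1 member at an FDR of 0.05, again *Stx3*, beside 3.07% of the genes to which it gave an adjusted p (465 genes), and limma-voom and edgeR's likelihood ratio test called 0. The mean was higher in *Rbfox2-/-* retinas for 7 of the 10 members, beside 50.7% of all genes, and 1 of the 7, *Bsn*, turned to a lower mean under upper-quartile normalization. The median log2 fold change of the members was 0.031, and that of all genes 0.0016.

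**Figure D1:**
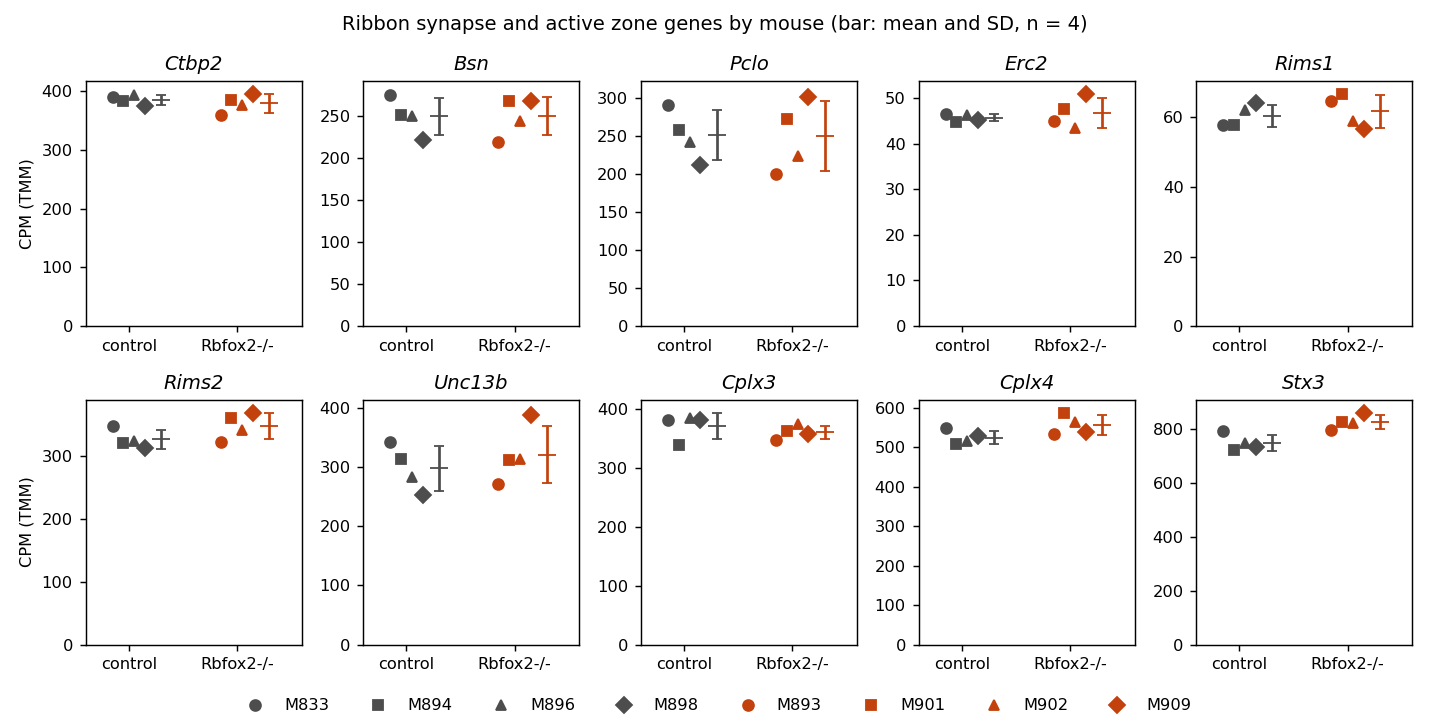
CPM (TMM-scaled, axes from 0) of each member gene in the 4 control and 4 *Rbfox2-/-* retinas, 1 point per mouse, with the group mean and SD beside the points. The groups overlap for every member but *Stx3*, whose *Rbfox2-/-* retinas lay at 794 to 857 CPM and controls at 721 to 791 CPM.

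*Stx3*, on the minus strand of chr19:11775118-11819403 (GRCm38), encodes syntaxin 3, the syntaxin of photoreceptor and bipolar cell ribbon synapses. Among the controls, M833 had 791, M894 721, M896 745 and M898 731 CPM. Among the *Rbfox2-/-* mice, M893 had 794, M901 825, M902 822 and M909 857 CPM. The groups did not overlap, but the gap between the highest control, M833, and the lowest *Rbfox2-/-* mouse, M893, was small beside the spread within either group. The means were 747 ± 31.0 and 825 ± 26.1 CPM (SD, n = 4 each), a ratio of 1.10 with a 95% interval of 1.03 to 1.18. Its log2 fold change was 0.14 (SE 0.0429), with an unadjusted p of 0.00769 and an FDR of 0.239 by the quasi-likelihood test, and an FDR of 0.0381 by DESeq2. Without M901 and M902 it was 0.14 (SE 0.0552, FDR 0.782), and leaving out single mice gave values between 0.12 and 0.17, with an FDR of 0.122 to 0.508.

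Markers of retinal cell types were read as counts and summed levels. Of all genes, 50.7% had a higher mean in *Rbfox2-/-* retinas. With an unadjusted p under 0.05, 6.42% of all genes were higher and 6.87% lower. Of 8 rod markers, 7 had a higher mean, 3 of them with an unadjusted p under 0.05, and their summed level was 61966 to 66660 CPM in the controls and 64304 to 69893 CPM in *Rbfox2-/-* retinas, with overlap. Of 6 cone markers, 5 had a higher mean (2 with an unadjusted p under 0.05, and the sixth marker was lower with an unadjusted p under 0.05), and their sum was 922 to 923 CPM in the controls and 983 to 1114 CPM in *Rbfox2-/-* retinas, without overlap. Of 7 bipolar cell markers, the other cells with ribbons, 5 had a lower mean, 3 with an unadjusted p under 0.05, with sums of 1599 to 1738 and 1544 to 1634 CPM. Of 6 amacrine cell markers, 5 had a lower mean, 0 with an unadjusted p under 0.05. Their sums were 1292 to 1364 and 1247 to 1334 CPM, with overlap. Of 5 Müller glia markers, 4 had a lower mean, 2 with an unadjusted p under 0.05. Their sum was 5066 to 5561 CPM in the controls and 4635 to 4990 CPM in *Rbfox2-/-* retinas, without overlap. Most of that sum was *Glul*, with means of 3384 and 3002 CPM, and it was the only 1 of the 5 whose groups did not overlap. Of 5 horizontal cell markers, 4 had a lower mean and 1 a higher, 1 in each direction with an unadjusted p under 0.05. Their sums were 256 to 266 and 233 to 240 CPM, without overlap. The difference in this sum lay largely in *Calb1*, with means of 76.2 and 57.9 CPM (FDR 0.00341). The part of these markers in the result on *Stx3* was not tested, and in whole retina more cells of a type and more RNA per cell cannot be told apart.

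Among all 16796 other genes tested, the 3 whose log2 CPM followed that of *Stx3* most closely over the 8 mice were *Pde6b* (Pearson r 0.982, Spearman rho 0.952), *Ikbip* (r 0.981, rho 0.929) and *Agtpbp1* (r 0.979, rho 0.976). *Pde6b* encodes a subunit of the rod phosphodiesterase. These coefficients were chosen as the highest and pool both groups, so they carry no p. All 3 genes had a higher mean in *Rbfox2-/-* retinas, with log2 fold changes of 0.13, 0.13 and 0.15.

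The 300 bases around the start of *Stx3*, from 250 before to 50 after it, are shown because *Stx3* is the member with the lowest p. They span chr19:11819354-11819653 on the minus strand (RefSeq, GRCm38.p6), and the capitals mark TAATCC, the core letters recognised by the photoreceptor factor CRX, searched on both strands.
Stx3 promoter: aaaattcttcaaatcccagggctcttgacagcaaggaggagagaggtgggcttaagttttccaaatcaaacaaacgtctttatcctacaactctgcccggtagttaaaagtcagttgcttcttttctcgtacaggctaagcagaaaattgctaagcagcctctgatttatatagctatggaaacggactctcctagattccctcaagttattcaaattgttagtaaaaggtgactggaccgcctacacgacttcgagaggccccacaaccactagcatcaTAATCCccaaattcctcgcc
The letters begin at position 281 of the 300, after the start. They occur in 5.94% of the 16019 promoters of genes in the table and in 2 of the 9 promoters matched to 8 members, the other being a start of *Ctbp2*.

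**Figure D2:**
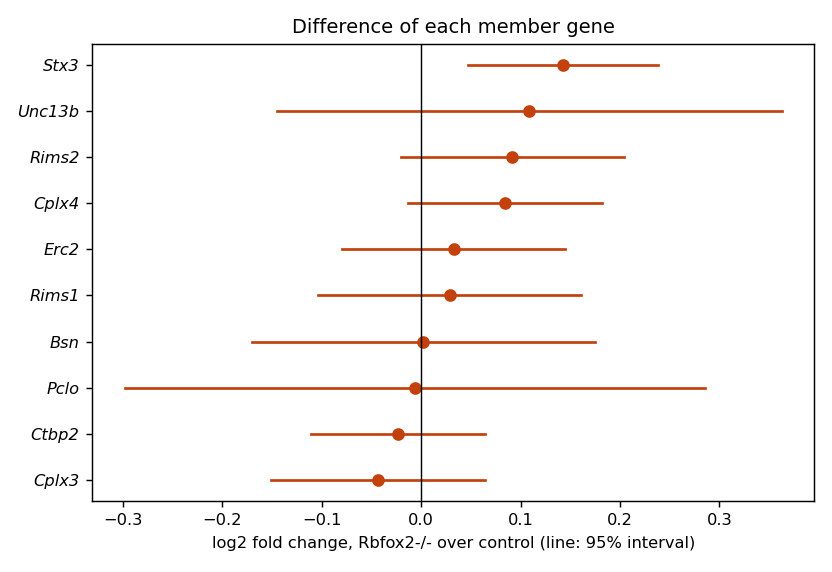
Log2 fold change of each member gene, *Rbfox2-/-* over control (horizontal axis), with its 95% interval from edgeR's quasi-likelihood fit (n = 4 each). The interval leaves out 0 only for *Stx3* (0.05 to 0.24), and those of *Pclo* (-0.30 to 0.29) and *Unc13b* (-0.15 to 0.36) are the widest.

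*Ctbp2*, on the minus strand of chr7:132987563-133124354, encodes both RIBEYE, the main ribbon protein, and CtBP2, a transcriptional corepressor found in many cell types. In the GENCODE annotation the RIBEYE transcript Ctbp2-214 has 988 codons and its own start at 133015248, while the CtBP2 transcript Ctbp2-201 has 445 codons and starts upstream at 133123367. The RefSeq promoter of the RIBEYE start (chr7:133015198-133015497, minus strand) is shown because it sets the ribbon transcript apart, with GGATTA, which is TAATCC on the other strand, in capitals.
Ctbp2 RIBEYE promoter: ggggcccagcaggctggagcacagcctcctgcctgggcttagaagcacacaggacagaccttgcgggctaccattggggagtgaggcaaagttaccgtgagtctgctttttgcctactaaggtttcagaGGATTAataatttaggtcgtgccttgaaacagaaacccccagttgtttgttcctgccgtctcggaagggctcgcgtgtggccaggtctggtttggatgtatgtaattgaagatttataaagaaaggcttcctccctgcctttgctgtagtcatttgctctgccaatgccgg
The deposited counts are per gene, so the values of *Ctbp2* pool RIBEYE and CtBP2. The 4 controls had 391, 383, 393 and 375 CPM, and the 4 *Rbfox2-/-* mice had 359, 386, 376 and 396 CPM. The groups overlapped, with the lowest and the highest value both among *Rbfox2-/-* mice. On the log2 scale the difference was -0.023 (SE 0.0392, FDR 0.841), with a 95% interval of -0.11 to 0.06, the narrowest of the 10. Its paralogue *Ctbp1* had 166 to 172 CPM in the controls and 163 to 176 CPM in *Rbfox2-/-* retinas.

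*Bsn*, on the minus strand of chr9:108096022-108190384, encodes Bassoon, and *Pclo*, on the plus strand of chr5:14514918-14863459, encodes the related Piccolo, whose short ribbon form piccolino cannot be separated in gene counts. *Bsn* had 274, 251, 249.9 and 221 CPM in the 4 controls. It had 219, 267, 244 and 268 CPM in the 4 *Rbfox2-/-* mice. But for M833, the controls fell inside the span of the *Rbfox2-/-* mice, and the log2 fold change was 0.0020 (SE 0.0775, FDR 0.994, 95% interval -0.17 to 0.17). *Pclo* had 292, 258, 242 and 213 CPM in the controls and 200.4, 274, 224 and 303 CPM in the *Rbfox2-/-* mice. As for *Ctbp2*, both the lowest and the highest value were in *Rbfox2-/-* mice, M893 and M909. The coefficient of variation of *Pclo* was 13.1% among controls and 18.5% among *Rbfox2-/-* mice, against 2.16% and 4.13% for *Ctbp2*. The log2 fold change of *Pclo* was -0.0064 (SE 0.131, FDR 0.989), and its interval of -0.30 to 0.29 shows how little these 8 mice limit the size of a difference.

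The levels of *Bsn* and *Pclo* moved together from mouse to mouse. Both were high in M833, M901 and M909 and low in M893, M898 and M902, with r 0.953 and rho 0.976 over the 8 mice, the highest r of the member pairs. The points pool both groups and share library and depth, and the coefficient carries no p.

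*Erc2*, on the plus strand of chr14:27622428-28478537, encodes CAST, a scaffold of the active zone cytomatrix that binds Bassoon and RIM. It had 46.5, 44.8, 46.4 and 45.2 CPM in the 4 controls and 44.9, 47.7, 43.6 and 50.9 CPM in the 4 *Rbfox2-/-* mice. The controls lay close together, with a coefficient of variation of 1.82% against 6.88% in *Rbfox2-/-* mice, whose range enclosed theirs. Its log2 fold change was 0.033 (SE 0.0503, FDR 0.822, 95% interval -0.08 to 0.14), and it was 0.064 without M901 and M902 and -0.0096 without M909. The paralogue *Erc1* (ELKS) also had a narrower range in the controls, 36.6 to 37.2 CPM, than in *Rbfox2-/-* retinas, 32.9 to 40.5 CPM. The mice differed in order, as M909 had the highest value of *Erc2* and the lowest of *Erc1*.

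*Rims1*, on the minus strand of chr1:22286251-22805994, and *Rims2*, on the plus strand of chr15:39198261-39684372, encode the RIM scaffolds, of which RIM2 predominates at photoreceptor ribbons. *Rims2* had 347, 320.4, 324 and 313 CPM in the 4 controls. It had 321, 359, 341 and 368 CPM in the 4 *Rbfox2-/-* mice. The groups overlapped through M833 and M893, and M901 and M909 lay above every control. The log2 fold change of *Rims2* was 0.09 (SE 0.0505, unadjusted p 0.0995, FDR 0.461), with a 95% interval of -0.02 to 0.20. Without M833 it was 0.12 with an unadjusted p of 0.0417, and without M893 it was 0.13 with an unadjusted p of 0.0248, the FDR being 0.269 and 0.347.

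*Rims1* had 57.8, 57.9, 62.1 and 64.3 CPM in the controls and 64.6, 66.6, 59.1 and 56.6 CPM in the *Rbfox2-/-* mice. The groups overlapped over most of their range, and the log2 fold change was 0.029 (SE 0.0593, FDR 0.875, 95% interval -0.10 to 0.16). *Rims1* was low in M833 and M909, the mice in which most other members were highest. The short RIM paralogues had 26.4 to 30.8 and 25.0 to 30.7 CPM (*Rims3*) and 7.37 to 8.08 and 6.48 to 8.52 CPM (*Rims4*) in controls and *Rbfox2-/-* retinas, with overlap.

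*Unc13b*, on the plus strand of chr4:43058953-43264871, encodes Munc13-2, a vesicle priming protein of photoreceptor terminals. The 4 controls had 342, 313, 283 and 252 CPM. The 4 *Rbfox2-/-* mice had 272, 312, 313 and 387 CPM. M909 lay above every control and the other *Rbfox2-/-* mice within their range. Its log2 fold change was 0.11 (SE 0.114, FDR 0.720, 95% interval -0.15 to 0.36), and single mice moved it in both directions, to 0.0065 without M909 and 0.0375 without M898, and to 0.18 without M833 and 0.18 without M893. The paralogue *Unc13a* (Munc13-1), the isoform of most conventional synapses, had 143 to 211 CPM in the controls and 194 to 212 CPM in *Rbfox2-/-* retinas, a log2 fold change of 0.20 (SE 0.0965, unadjusted p 0.0612, FDR 0.398). Without M898 the value of *Unc13a* was 0.11 (unadjusted p 0.123), and without M894 it was 0.30 (unadjusted p 0.0051). *Unc13c* had 102 to 112 and 96.1 to 104 CPM.

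*Cplx3*, on the minus strand of chr9:57599992-57606281, and *Cplx4*, on the minus strand of chr18:65955722-65970237, encode the complexins of retinal ribbon synapses, *Cplx4* mainly in photoreceptors and *Cplx3* also in bipolar and some amacrine cells. *Cplx3* had 381, 338, 385 and 382 CPM in the 4 controls. It had 347, 364, 374 and 358 CPM in the 4 *Rbfox2-/-* mice. Every *Rbfox2-/-* mouse lay below 3 of the controls and above M894. The log2 fold change was -0.043 (SE 0.0482, FDR 0.736, 95% interval -0.15 to 0.06). It was -0.085 without M894 (unadjusted p 0.0571), -0.026 without M896, -0.025 without M893 and -0.080 without M901 and M902.

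*Cplx4* had 548, 508, 515 and 527 CPM in the controls and 534, 587, 565 and 538 CPM in the *Rbfox2-/-* mice. The groups overlapped only through M833, which lay above M893 and M909. Its log2 fold change was 0.08 (SE 0.0436, unadjusted p 0.0832, FDR 0.436, 95% interval -0.01 to 0.18), and without M901 and M902 it was 0.028 (SE 0.0468). The genes closest to *Cplx4* over the 8 mice were *D430020J02Rik* (r 0.987), *Ywhae* (r 0.972), which encodes a 14-3-3 protein, and *C330007P06Rik* (r 0.971), again chosen as the highest. The complexins of conventional synapses, *Cplx1* and *Cplx2*, had 111 to 167 and 336 to 418 CPM in the controls and 134 to 165 and 332 to 398 CPM in *Rbfox2-/-* retinas.

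Neither complexin passed a threshold between the groups, and their ratio within each mouse is given as a description. On the per-length FPKM scale, *Cplx4* over *Cplx3* was 2.34, 2.44, 2.18 and 2.25 in the 4 controls and 2.51, 2.63, 2.46 and 2.45 in the 4 *Rbfox2-/-* mice. The groups did not overlap, although M894 at 2.44 and M909 at 2.45 nearly touched, with means of 2.30 ± 0.114 and 2.51 ± 0.0838 (SD, n = 4 each). The high control value, that of M894, rests on its low *Cplx3*. This was the only one of 6 ratios formed between members or with a paralogue whose groups did not overlap, and no test was run on it. The others were *Pclo* over *Bsn*, *Rims2* over *Rims1*, *Unc13b* over *Unc13a*, *Ctbp2* over *Ctbp1* and *Erc2* over *Erc1*.

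Levels can be compared between genes only per length. On the FPKM scale of the authors, the order of the mean levels over 8 mice was *Cplx4* (307.5), *Stx3* (265), *Cplx3* (128), *Ctbp2* (91.7), *Unc13b* (48.5), *Rims2* (45.4), *Rims1* (27.9), *Bsn* (15.6), *Pclo* (12.5) and *Erc2* (7.60). The small proteins of the fusion machinery therefore lay above the large scaffolds, from the 99.5th percentile of the 17500 genes for *Cplx4* to the 54.5th for *Erc2*. *Unc13b* and *Rims2* did not separate, with *Unc13b* higher in 6 of 8 mice. *Bsn* lay above *Pclo* in 8 of 8 mice, although their ranges over mice overlapped, and the ranges of all other neighbours did not. The order in the middle depends on the gene length behind the FPKM values, which the counts and FPKM values together imply. For *Rims1* that length was 2189 bases, where the longest GENCODE coding transcript has 6446, and at the latter its mean level would be 9.48 FPKM, below *Pclo*. For *Unc13b* it was 6374 against 14754 bases (20.9 FPKM at the latter), and for *Rims2* 7404 against 4800 bases (70.1 FPKM).

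**Figure D3:**
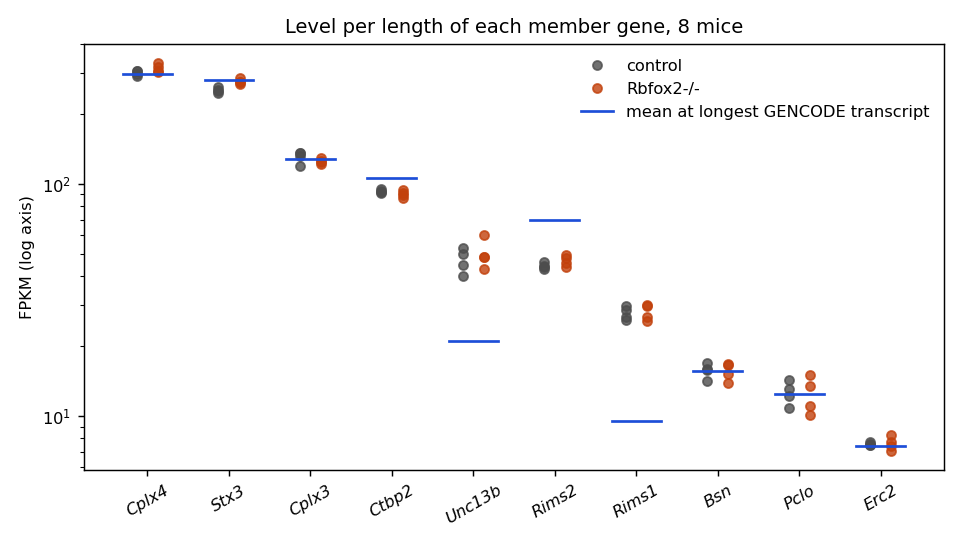
FPKM (log axis) of each member gene in the 8 mice, 1 point per mouse, ordered by mean, with a blue line at the mean recomputed for the longest GENCODE coding transcript. Levels run from 307.5 FPKM for *Cplx4* to 7.60 for *Erc2*, and the blue line lies far from the points for *Unc13b*, *Rims2* and *Rims1*.

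Members differed between mice of the same group, some of them together. M833 had the highest control value for 7 of the 10 members and M909 the highest *Rbfox2-/-* value for 7, while M893 had the lowest *Rbfox2-/-* value for 8. Relative to the mean of the controls, the median log2 difference of the members was 0.073 in M833, 0.12 in M901 and 0.13 in M909, and -0.061 in M893 and -0.0062 in M902. *Rims1* ran against several others (r -0.73 with *Unc13b* and -0.54 with *Pclo*), *Cplx3* followed none closely (r -0.19 to 0.31), and *Stx3* was higher in every *Rbfox2-/-* mouse than in every control. The spread of these medians between mice of 1 group was thus larger than the median difference of 0.031 between the groups. M833 and M909 also had the lowest summed level of 6 ganglion cell markers in their groups, with 444 CPM against 714 to 748 in the other controls and 579 CPM against 677 to 766 in the other *Rbfox2-/-* mice. M833 also had the highest rod marker sum among the controls, 66660 CPM against 61966 to 63367, while in M909 it was 67907 CPM, below M901 and M902 and above M893. M909 also had the highest summed level of 6 pigment epithelium markers, 216 CPM against 87.2 to 169 CPM in the other mice, with 101 CPM in M833. The part of these marker levels in the pattern was not tested.

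**Figure D4:**
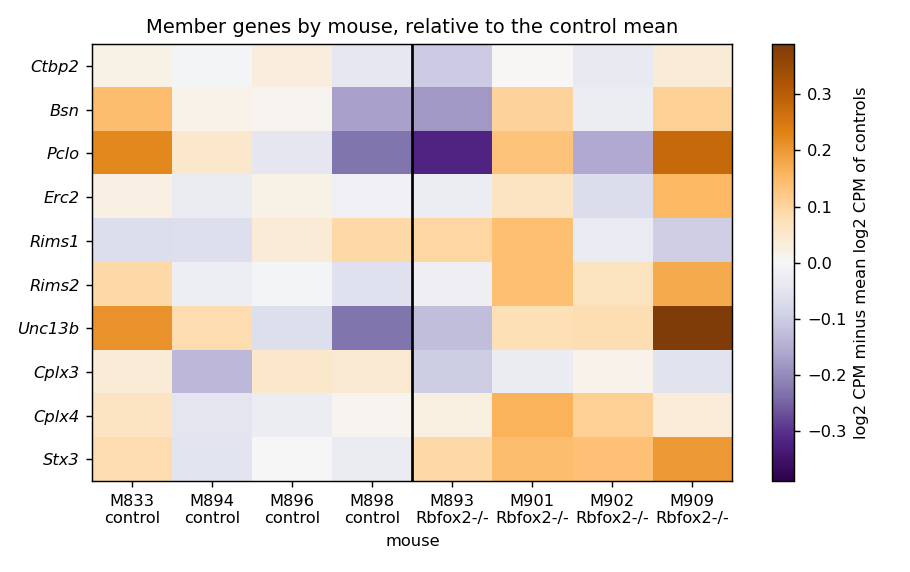
Log2 CPM of each member gene (rows) in each mouse (columns) minus the mean log2 CPM of the 4 controls, as colour from purple (lower) to orange (higher). Orange columns are seen in M833, M901 and M909, with medians of 0.073, 0.12 and 0.13, and M893 is mostly purple, with a median of -0.061.

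The wider machinery was read from 5 lists of other synaptic genes, 58 of 59 listed genes being in the table and tested. None passed an FDR of 0.05 in the quasi-likelihood test, 8 had an unadjusted p under 0.05 (5 higher, beside 6.42% of all genes, and 3 lower, beside 6.87%), and DESeq2 called 4 at an FDR of 0.05, beside 3.07% of all genes to which it gave an adjusted p. The groups did not overlap for 4 genes that were higher, beside 3.64% of all genes, and 1 that was lower, beside 3.39%. Their median log2 fold change was 0.012. The count of 8 was 4 without M901 and M902 and also 4 without the control M898, while the share of all genes with an unadjusted p under 0.05 went from 13.3% to 6.01% and 8.83% in these settings.

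Of 9 genes of the photoreceptor terminal, 6 had a higher mean in *Rbfox2-/-* retinas, beside 50.7% of all genes. An unadjusted p under 0.05 was found for 4, all higher, beside 6.42% of all genes, and the list median was 0.08. *Cacna2d4*, which encodes the calcium channel subunit α2δ4 of photoreceptor terminals, had 549, 538, 506 and 501 CPM in the controls and 575, 584, 610.5 and 592 CPM in the 4 *Rbfox2-/-* mice. Its groups did not overlap, and the log2 fold change was 0.17 (SE 0.0422, unadjusted p 0.0021, FDR 0.178, and FDR 0.00536 by DESeq2). *Egflam*, which encodes pikachurin, a matrix protein of the photoreceptor synaptic cleft, had 285 to 308 and 315 to 335 CPM, a log2 fold change of 0.13 (SE 0.0387, FDR 0.235, and 0.0427 by DESeq2). The other genes were named after their values were seen. They are *Cacna1f*, which encodes the pore-forming subunit Cav1.4 of the photoreceptor calcium channel (log2 fold change 0.21, SE 0.0890, FDR 0.352), and *Cabp4*, a calcium-binding regulator of that channel (0.16, SE 0.0576, FDR 0.297). Without M901 and M902 the unadjusted p of *Cacna1f* was 0.0758, and *Cabp4* had a value of 0.075 with an unadjusted p of 0.232. In the same setting *Cacna2d4* was at 0.15 (FDR 0.731) and *Egflam* at 0.11 (FDR 0.820). Without M898, *Cacna1f* was at 0.14 (unadjusted p 0.0888). The summed level of the 9 genes was 3639 to 3830 CPM in the controls and 3889 to 4175 CPM in *Rbfox2-/-* retinas. Its largest part was *Unc119*, with means of 1720 and 1819 CPM (unadjusted p 0.0683, quasi-likelihood test). The sum stood beside the rod and cone marker levels given above, whose part was not tested.

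Of 16 SNARE and fusion genes, 10 had a lower mean, where 50.7% of all genes had a higher one. An unadjusted p under 0.05 was found for 2, both lower, beside 6.87% of all genes. None was higher at that threshold, beside 6.42% of all genes, and the list median was -0.011. *Vamp1*, which encodes synaptobrevin 1, a vesicle SNARE, had 61.4, 99.0, 95.2 and 93.9 CPM in the 4 controls and 63.9, 59.7, 59.8 and 53.2 CPM in the 4 *Rbfox2-/-* mice. Of the controls, M833 alone overlapped the *Rbfox2-/-* values. The log2 fold change of *Vamp1* was -0.56 (SE 0.132, FDR 0.172), and it was -0.70 with an FDR of 0.0044 without M833, the control with the low ganglion marker level. *Doc2a*, which encodes a calcium sensor of asynchronous release, was lowly expressed. It had 3.76 to 4.51 CPM in the controls and 2.96 to 3.56 CPM in *Rbfox2-/-* retinas, which did not overlap. Its log2 fold change was -0.36 (SE 0.0917, FDR 0.192, and 0.0170 by DESeq2). Without M901 and M902 the value of *Doc2a* was -0.28 (SE 0.116, unadjusted p 0.0383 and FDR 0.791 by the quasi-likelihood test). *Stx1a*, which encodes a plasma membrane syntaxin of conventional synapses, overlapped between the groups, with a log2 fold change of -0.024.

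**Figure D5:**
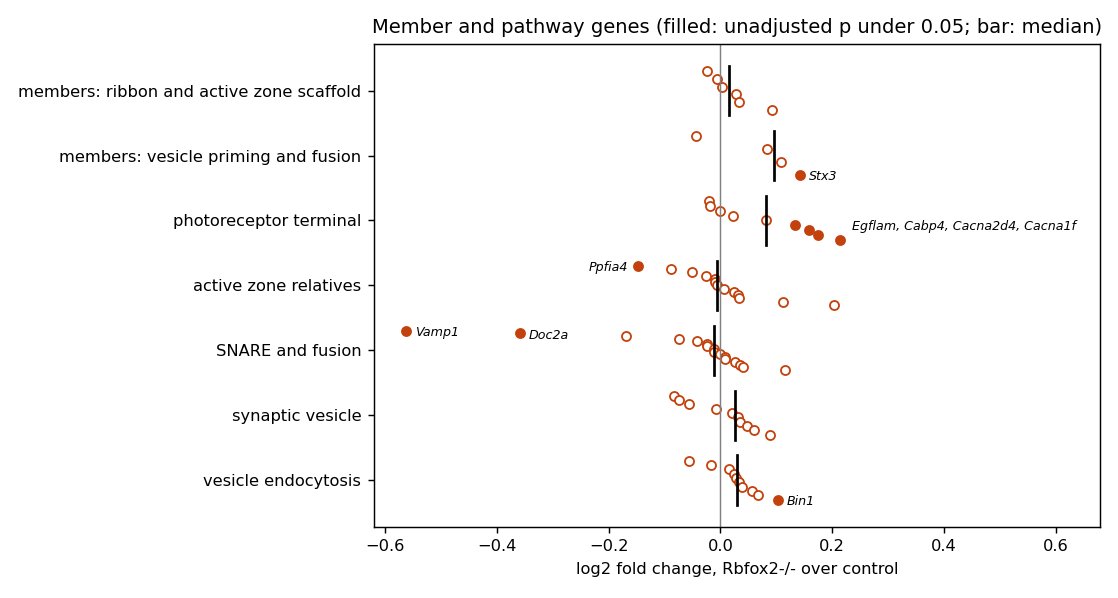
Log2 fold change, *Rbfox2-/-* over control (horizontal axis), of the 10 member genes in 2 rows and the 58 other synaptic genes in 5 rows, 1 point per gene, filled where the unadjusted p was under 0.05, with the row's median as a bar. The medians run from -0.011 for SNARE and fusion genes to 0.08 for the photoreceptor terminal and 0.10 for the members of priming and fusion.

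The remaining lists held few differences. Their counts stand beside 50.7% of all genes with a higher mean. With an unadjusted p under 0.05, 6.42% of all genes were higher and 6.87% lower. Of 13 relatives of the active zone scaffolds, 6 had a higher and 7 a lower mean, and 1 had an unadjusted p under 0.05, *Ppfia4* (liprin-α4), with 42.5 to 52.6 CPM in the controls and 42.6 to 45.9 CPM in *Rbfox2-/-* retinas and a log2 fold change of -0.15 (SE 0.0643, FDR 0.367). Its unadjusted p was 0.146 without M901 and M902 and 0.0012 to 0.130 with single mice left out. Of 10 synaptic vesicle genes, none had an unadjusted p under 0.05. The lowest p among them was that of *Synpr*, which encodes synaptoporin (log2 fold change -0.08, SE 0.0379, FDR 0.389), followed by *Syn3*, which encodes synapsin 3 (0.06, SE 0.0389, FDR 0.536). Of 10 endocytosis genes, 8 had a higher mean and 1 an unadjusted p under 0.05. That gene, *Bin1*, which encodes the membrane-curving protein amphiphysin 2, had 264 to 291 CPM in the controls and 293 to 306 CPM in *Rbfox2-/-* retinas, without overlap (log2 fold change 0.10, SE 0.0379, FDR 0.307). Its unadjusted p was 0.114 without M901 and M902 and 0.0126 to 0.0678 with single mice left out. *Dnm2*, which encodes dynamin 2, had 68.1 to 76.5 and 73.6 to 77.2 CPM (0.07, SE 0.0413, FDR 0.522).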

How the data were processed

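Poly(A)-selected retinal RNA libraries were sequenced, 1 per mouse. The authors aligned paired reads to mm10 (GRCm38) with STAR, kept unique alignments and deposited HTSeq counts per gene, without normalization. The methods name both RefSeq and Ensembl annotation and give no strand setting, so reads of overlapping antisense genes may be pooled. Per the labels, CASAVA 1.8.2 and edgeR were used. The deposited table also holds FPKM values from the authors, used here only for levels and ratios between genes, and adjusted counts, fold changes, p-values and FDR of the authors, which were not used.

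The members and lists were chosen with earlier results of these data known. From the counts, filterByExpr of edgeR 4.0.16 (R 4.3.3) kept 16797 of 17500 genes, which entered TMM normalization and the quasi-likelihood test, 4 against 4 mice and no covariate, with Benjamini-Hochberg adjustment (FDR) over all of them. All tests are two-sided. Genes named are the 10 members, their paralogues, the 2 lowest p of each list, *Rbfox2*, and for the member with the lowest p and that with the highest level the 3 genes with the highest Pearson r of log2 CPM (prior count 2). *Cacna1f* and *Cabp4* were added after their values were seen, and *Xist* is given only beside a result. *Calb1*, *Glul* and *Unc119* are named only for their part in a summed level. The p-values of the quasi-likelihood test set the group difference against the spread between mice of the same group, with information shared across genes. Within groups, the 12 pairs of libraries differed beyond counting noise (lowest chi-square per degree of freedom 31.5).

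Alternatives were DESeq2 1.42.0, limma-voom (limma 3.58.1), the likelihood ratio test, RLE and upper-quartile normalization, no filter, a minimum of 10 counts in all libraries, omission of each mouse, omission of M901 and M902, and a term for them. The totals of 160630226 to 211283591 counts make counting error small, and the 4 mice per group limit precision. Coordinates are GRCm38, transcripts GENCODE M21, promoters RefSeq (GRCm38.p6), which matched 8 of 10 members. A paralogue named by the rule and the name of 1 allele are not reported here.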

Additional observations from a re-analysis of the deposited data

Results flagged for a closer look

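In 4 of the 62 groups of 4 mice examined, 1 mouse stood apart from the other 3 by Dixon's criterion at its 95% level, where chance gives about 3.1 such groups. *Cplx3* in the control M894 was 338.5 CPM, and the other controls had 380.8 to 384.9 CPM. *Vamp1* in the control M833 was 61.4 CPM, against 93.9 to 99.02 in the other controls. *Cplx1* in the control M833 was 110.7 CPM, against 164.2 to 167.2 CPM. *Unc13c* in the control M896 was 112.3 CPM, against 101.7 to 103 CPM. For *Vamp1* and *Cplx1* the mouse was the control with the low ganglion cell marker level (444 CPM), whose part was not tested.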

How the results depend on the processing

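DESeq2 raised the members called at an FDR of 0.05 from 0 to 1 (*Stx3*) and the other synaptic genes called from 0 to 4 (*Vamp1*, *Doc2a*, *Cacna2d4* and *Egflam*), and the likelihood ratio test called 1 of the latter (*Vamp1*). With each mouse left out, members with an unadjusted p under 0.05 numbered 1 to 2 (*Rims2* was added without M833 or M893), and 0 members passed the FDR. Among the other synaptic genes, 0 to 1 passed the FDR (*Vamp1* without M833) and 4 to 10 had an unadjusted p under 0.05, against 8 with all mice, the count being 4 without M898 and 5 without M896, where the share of all genes at that threshold was 8.83% and 8.84% against 13.3% with all mice (17.6% without M833). That count was 4 with M901 and M902 left out and 4 with a term for them, beside 6.01% and 6.63% of all genes. Of 510 gene and setting pairs, 467 kept direction and side of the threshold, 36 turned direction, all in genes near 0, and 7 passed the FDR only under the alternative. The turned log2 fold changes were, under upper-quartile normalization, -0.0036 (*Bsn*) and -0.0013 (*Ctbp1*), under limma-voom 0.0050 (*Cplx1*), without M901 and M902 -0.035 (*Bsn*), -0.00088 (*Rims1*), -0.0032 (*Ctbp1*) and -0.037 (*Rims4*), and with a term for them -0.033 (*Bsn*), 0.0014 (*Pclo*), -0.00047 (*Ctbp1*) and -0.034 (*Rims4*). With each mouse left out, the ranges were -0.044 to 0.0024 (*Ctbp2*), -0.051 to 0.059 (*Bsn*), -0.11 to 0.086 (*Pclo*), -0.0096 to 0.064 (*Erc2*), -0.011 to 0.069 (*Rims1*), -0.011 to 0.026 (*Ctbp1*), -0.056 to 0.045 (*Erc1*), -0.069 to 0.028 (*Rims3*), -0.020 to 0.10 (*Rims4*), -0.14 to 0.042 (*Cplx1*) and -0.057 to 0.022 (*Stx1a*). The cause of these shifts was not tested. No paired analysis was possible because the groups share no replicate numbers. The 4 mice per group, not depth, limit precision.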
